A study of Mus musculus with 90 samples.

Results

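*Elovl3*, *Hsd3b5*, *Cyp2d9*, *Cyp4a12a*, *Cyp4a12b*, *Slco1a1*, *Selenbp2*, *C6* and *Serpina4-ps1* are liver genes known to be male-biased in mice and to depend on the pulses in which growth hormone (GH) is secreted. The pituitary of male rodents releases GH in pulses separated by intervals with almost none, whereas females release it more evenly. In hepatocytes a pulse activates the transcription factor STAT5B through the GH receptor and the kinase JAK2. Male-biased genes of this kind need the pulses, and a group of female-biased genes is held down by them. From this class the 9 genes were chosen by name and by their measured levels across diet, genotype, time point and corticosterone in these data, out of 27654 gene IDs in the deposited tables. Every level and difference of the 9 genes below is therefore a description without a test, and nothing is read from counts of these genes or from the shares of all genes set beside them. GH itself was not measured in these files, and female mice were not analysed here.

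6 of the 9 genes act in lipid, steroid and drug handling. *Slco1a1* (ENSMUSG00000041698, chr6:141907282-141946962, minus strand) encodes an organic anion transporter that takes up bile acids, steroid conjugates and drugs from the blood. *Elovl3* (ENSMUSG00000038754, chr19:46131897-46135694, plus strand) encodes an elongase of saturated and monounsaturated very long chain fatty acids. *Hsd3b5* (ENSMUSG00000038092, chr3:98618634-98630252, minus strand) encodes a ketosteroid reductase of the hydroxysteroid dehydrogenase family. *Cyp2d9* (ENSMUSG00000068086, chr15:82433437-82456845, plus strand) encodes a cytochrome P450 that hydroxylates testosterone. *Cyp4a12a* (ENSMUSG00000066071, chr4:115299046-115332815, plus strand) and *Cyp4a12b* (ENSMUSG00000078597, chr4:115411624-115439034, plus strand) encode fatty acid hydroxylases that act on arachidonic acid. The remaining 3 have other roles. *Selenbp2* (ENSMUSG00000068877, chr3:94693556-94704413, plus strand) encodes a selenium-binding protein. *C6* (ENSMUSG00000022181, chr15:4727175-4814967, plus strand) encodes a component of the membrane attack complex of complement, which hepatocytes secrete into plasma. *Serpina4-ps1* (ENSMUSG00000092075, chr12:104080649-104086724, plus strand) is annotated as an unprocessed pseudogene of the serpin family. Positions are those of the mm10 annotation used here.

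*Cyp4a12a* and *Cyp4a12b* lie 78808 bases apart and were identical at 98.5% of aligned coding bases, so reads of the pair may have been split wrongly and each is uncertain on its own. The same holds for *Selenbp2*, at 98.7% identity with *Selenbp1*, and to a lesser degree for *Cyp2d9*, at 93.3% with *Cyp2d11*. *Slco1a1* reached 88.0% with *Slco1a5* and *Hsd3b5* 80.8% with *Hsd3b6*. The nearest relatives compared were more distant for *Elovl3* (*Elovl6*, 58.6%) and *C6* (*C7*, 49.9%).

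Poly(A) RNA of single livers was sequenced from male C57BL/6J mice, giving 90 libraries in 3 experiments. A diet comparison at ZT12 (hours after lights on, with dark from ZT12) held 3 WT livers on caloric restriction (cal. res.) and 3 WT livers on control diet (ctrl.). A time series over 6 time points 4 h apart held 18 WT and 18 GR LKO livers on caloric restriction (3 per time point) and 22 WT and 20 GR LKO livers on control diet (3 or 4 per time point). A corticosterone experiment at ZT12 held 3 livers of WT mice given corticosterone (CORT) and 3 of WT mice given vehicle. WT mice of the time series carried floxed alleles of the glucocorticoid receptor gene *Nr3c1* (GR fl/fl) without Cre, and GR LKO mice carried the same alleles with Cre driven by the albumin promoter, which is active in hepatocytes, so that other liver cells keep the receptor. The labels of the diet and corticosterone experiments give only WT. Mice of the feeding protocols lived 1 per cage from 12 weeks of age. Restricted mice received stepwise less food over 4 weeks, ending 40% below their own earlier intake, with food given at ZT12. The time at that level is given as 3 weeks in 1 place and 4 weeks in another. Control mice fed ad libitum and then only at night for 1 week. The control libraries of the diet comparison carry AL in their titles although their treatment label gives night-restricted feeding. CORT was injected at 5 mg per kg into the peritoneum for 7 days in night-fed mice, which were 12 weeks old before a period of handling. The injection time is given as ZT11 in 1 place and ZT12 in another, so whether livers were taken shortly after the last injection or about a day after it is not known. Estimated counts per library came to 10057544 to 20788575 in the time series, 36442195 to 39492146 in the diet comparison and 13739631 to 16077943 in the corticosterone experiment, so that the lowest levels below, under 1 CPM (counts per library scaled to a common total with TMM), rest on few reads. CPM are not corrected for gene length, and levels are compared between livers and not between genes.

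*Nr3c1* separated the genotypes in every library. Its level was 69.9 to 119 CPM in WT libraries of the time series (medians 93.6 in restricted and 87.2 in control-diet livers) and 16.1 to 32.0 CPM in GR LKO libraries (medians 24.9 and 21.6). Hepatocyte markers were abundant in all libraries. The summed level of 6 such markers, led by *Alb*, was 79532 to 84863 CPM in control livers and 148097 to 154285 CPM on caloric restriction in the diet comparison, and medians in the time series were 124816 (WT) and 103109 (GR LKO) on caloric restriction and 87236 and 71191 on control diet. None of the 6 was at 0. The sum of 3 adipocyte markers, led by *Cfd*, reached 2.59 to 49.1 CPM in GR LKO livers on control diet against 0 to 1.57 in WT, with 1 of the 3 at 0 in every library of both groups. Markers of exocrine pancreas (4, led by *Amy2a5*) had a median of 0 in each group and reached 718 CPM in a single WT library on caloric restriction and 495 in a single WT library on control diet. Markers of sinusoidal endothelium (4, led by *Clec4g*) summed to 93.7 to 127 CPM on control diet and 152 to 182 CPM on caloric restriction in the diet comparison, and markers of stellate cells (4, led by *Dcn*) to 156 to 191 CPM and 239 to 274 CPM. Cholangiocyte markers summed there to 4.03 to 4.77 CPM on control diet and 7.71 to 10.1 CPM on caloric restriction. Lower without overlap on caloric restriction were markers of lymphocytes (1.45 to 2.67 against 0.397 to 0.519 CPM) and neutrophils (0.276 to 0.628 against 0.170 to 0.273 CPM). The same held for adipocyte markers (0.158 to 0.288 against 0 to 0.0567 CPM). The neutrophil ranges nearly touched, and sums under 1 CPM rest on few reads. Of the 3 adipocyte markers 2 were at 0 in every restricted library and 1 in every control library. The part of these markers in the results was not tested. In bulk liver, fewer cells of a type and less RNA per cell cannot be told apart.

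Some livers stood apart for many of the 9 genes at once. Replicate 2 of the restricted WT group at ZT12 was the highest of its 3 livers for all 9 genes, as were replicate 3 of restricted WT at ZT4 and replicate 1 of restricted GR LKO at ZT0. In the diet comparison the restricted replicate 1 was the highest for all 9. Highest for 8 were restricted WT replicate 3 at ZT0 and at ZT16 and restricted GR LKO replicate 3 at ZT20. On control diet GR LKO replicate 2 at ZT16 and replicate 3 at ZT20 were also the highest for 8. At the low end, restricted GR LKO replicate 3 at ZT0 was the lowest for all 9 genes, and 5 livers were the lowest for 8: restricted WT replicate 2 at ZT0 and at ZT8, where *Elovl3* was at 0 in all 3 livers, restricted GR LKO replicate 2 at ZT20, control-diet GR LKO replicate 1 at ZT20 and CORT replicate 2. *Slco1a1* shows the pattern. Its levels in restricted WT livers were 8.28, 7.11 and 223 CPM at ZT4 and 23.1, 266 and 31.1 CPM at ZT12, and in restricted GR LKO livers 193, 31.1 and 15.0 CPM at ZT0. In each of these groups a single liver was far above the other 2. Control-diet values of *Slco1a1* spread less around their means than in these groups, for example 444, 576, 451 and 489 CPM in WT at ZT12. Other genes could spread widely on control diet too. At ZT16 the standard deviation was 361 CPM around a mean of 293 CPM for *Serpina4-ps1* in WT. For *Selenbp2* in GR LKO it was 294 around 241 CPM. Where a single liver moved a fitted difference by more than the spread between replicates, the value without it is given below. That spread was the largest standard deviation of log2 CPM in any group compared.

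The diet comparison asked how caloric restriction changes the liver transcriptome at the end of the daily fast. All 9 genes were lower in every restricted liver than in every control liver. This separation was seen in 30.1% of all genes tested, in the same direction, and the low levels on caloric restriction were among the values known when the genes were chosen. *Slco1a1* was at 509, 489 and 592 CPM in the 3 control livers and at 49.8, 5.07 and 9.51 CPM in the 3 restricted livers. *Elovl3* was at 8.15, 12.9 and 10.98 CPM in controls and at 3.66, 0 and 0.773 CPM in restricted livers. *Hsd3b5* was at 247, 176 and 275 CPM in controls and at 3.74, 0.338 and 0.628 CPM in restricted livers. In these 3 genes restricted replicate 1 was well above the other restricted livers and still below every control.

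*Cyp2d9* was at 1703, 1556 and 1453 CPM in controls and at 249.98, 197 and 177 CPM in restricted livers. *Cyp4a12a* was at 299, 370.1 and 409 CPM against 3.26, 0.448 and 0.802 CPM, and *Cyp4a12b* at 175, 199 and 211 CPM against 2.67, 0.643 and 0.946 CPM. *Selenbp2* was at 465, 368 and 567 CPM in controls and 6.07, 3.43 and 2.34 CPM in restricted livers, and *C6* at 311, 287 and 363 CPM and 25.8, 21.6 and 25.3 CPM. *Serpina4-ps1* was at 394, 297 and 413 CPM in controls and 1.56, 1.27 and 0.819 CPM in restricted livers. *C6* varied little within either group. On the log2 scale the fitted differences were -8.24 (SE 0.25) for *Serpina4-ps1*, -7.92 (SE 0.62) for *Cyp4a12a*, -7.23 (SE 0.71) for *Hsd3b5*, -7.11 (SE 0.43) for *Cyp4a12b* and -6.89 (SE 0.38) for *Selenbp2*. The differences were smaller for *Slco1a1* at -4.63 (SE 0.83), *C6* at -3.73 (SE 0.12), *Cyp2d9* at -2.92 (SE 0.15) and *Elovl3* at -2.88 (SE 0.91), with n = 3 in each group. With counts of their near relatives added the differences were -1.85 for *Hsd3b5*, -0.67 for *Cyp2d9* and -0.79 for *Selenbp2*. Here and below, these sums take in relatives down to 52.4% coding identity for *Hsd3b5* and 57.1% for *Cyp2d9*. They give the level of a gene family and cannot tell misassigned reads from transcripts of the relatives themselves. In time-series WT libraries at ZT12, where diet coincides with library batch, the differences without relatives were -4.61 for *Serpina4-ps1*, -3.52 for *Cyp4a12a*, -5.13 for *Hsd3b5*, -3.65 for *Cyp4a12b*, -5.34 for *Selenbp2*, -2.19 for *Slco1a1*, -1.81 for *C6* and -1.30 for *Cyp2d9*, and *Elovl3* took the opposite sign at 0.47, with restricted replicate 2 at 36.9 CPM and the other restricted livers at 0.458 and 2.38 CPM.

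**Figure D1:**
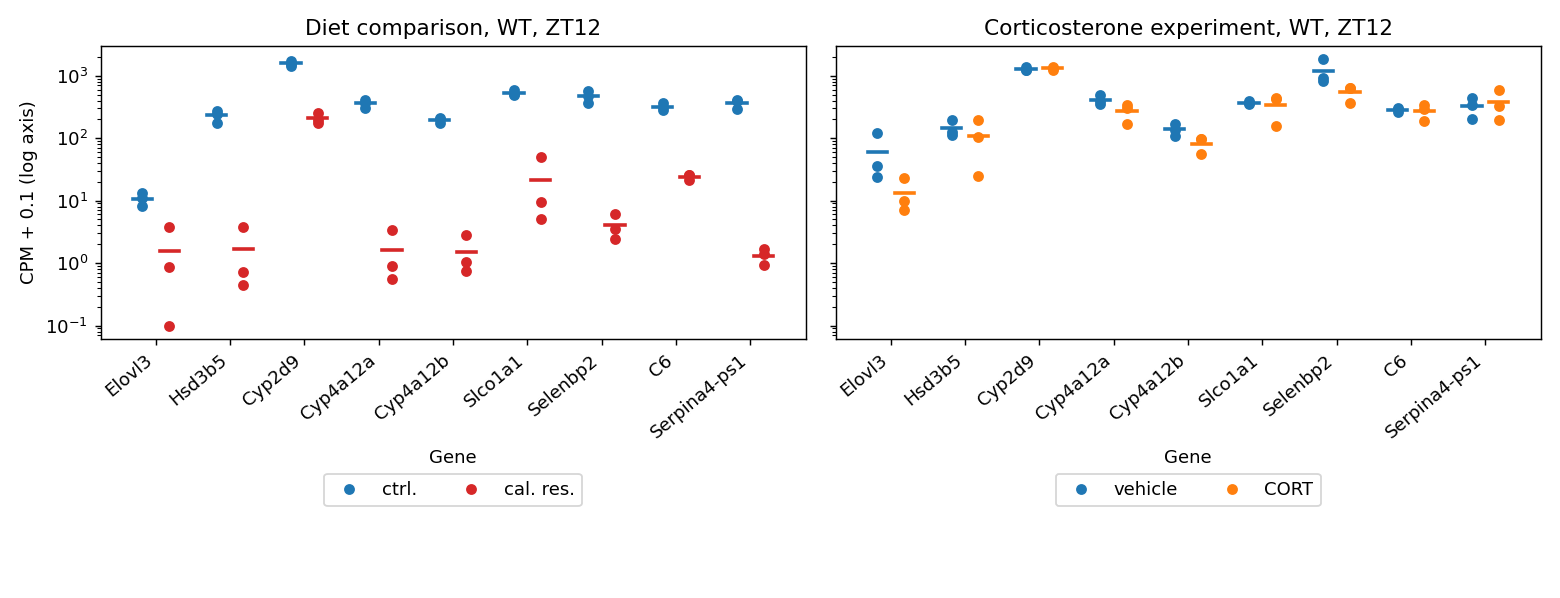
Level of the 9 genes at ZT12 in WT livers of the diet comparison (left) and the corticosterone experiment (right). Each point is a liver (CPM + 0.1, log axis) and each bar a group mean (n = 3). On caloric restriction every point lies below every control point of the same gene. Every CORT point lies below every vehicle point for 4 of the 9 genes, as for 16.3% of all genes tested.

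Levels by diet can be set side by side over the day in the time series, in which the diet cannot be told apart from the batch of libraries and where the 9 genes were not tested between diets. In WT mice all restricted livers lay below all control livers for 7 of the 9 genes at ZT0, for 9 at ZT4 and ZT8, for 8 at ZT12 and for 9 at ZT16 and ZT20. In GR LKO mice the number was 6 at ZT0, 9 from ZT4 to ZT16 and 3 at ZT20. From ZT0 to ZT20 the same held for 15.2%, 20.1%, 18.2%, 22.96%, 20.1% and 15.3% of all genes tested in WT and for 21.6%, 19.2%, 19.3%, 21.8%, 23.3% and 15.1% in GR LKO. The size of the gap varied with the time of day. Restricted WT means were, as the median over the 9 genes, 27.4% of control means at ZT0, 7.26% at ZT4, 3.53% at ZT8, 8.69% at ZT12, 3.09% at ZT16 and 26.7% at ZT20. In GR LKO mice these medians were 28.2%, 3.22%, 3.91%, 3.70%, 6.83% and 46.8%. The same medians over all genes tested were 99.1 to 102% in WT and 98.8 to 103% in GR LKO. By the median of the 9 genes restricted and control livers were nearest to each other at ZT20 and ZT0. In WT the restricted mean was the higher of the pair for *Cyp2d9* at ZT0 (901 against 794 CPM) and for *Elovl3* at ZT12 (13.2 against 9.64 CPM).

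**Figure D2:**
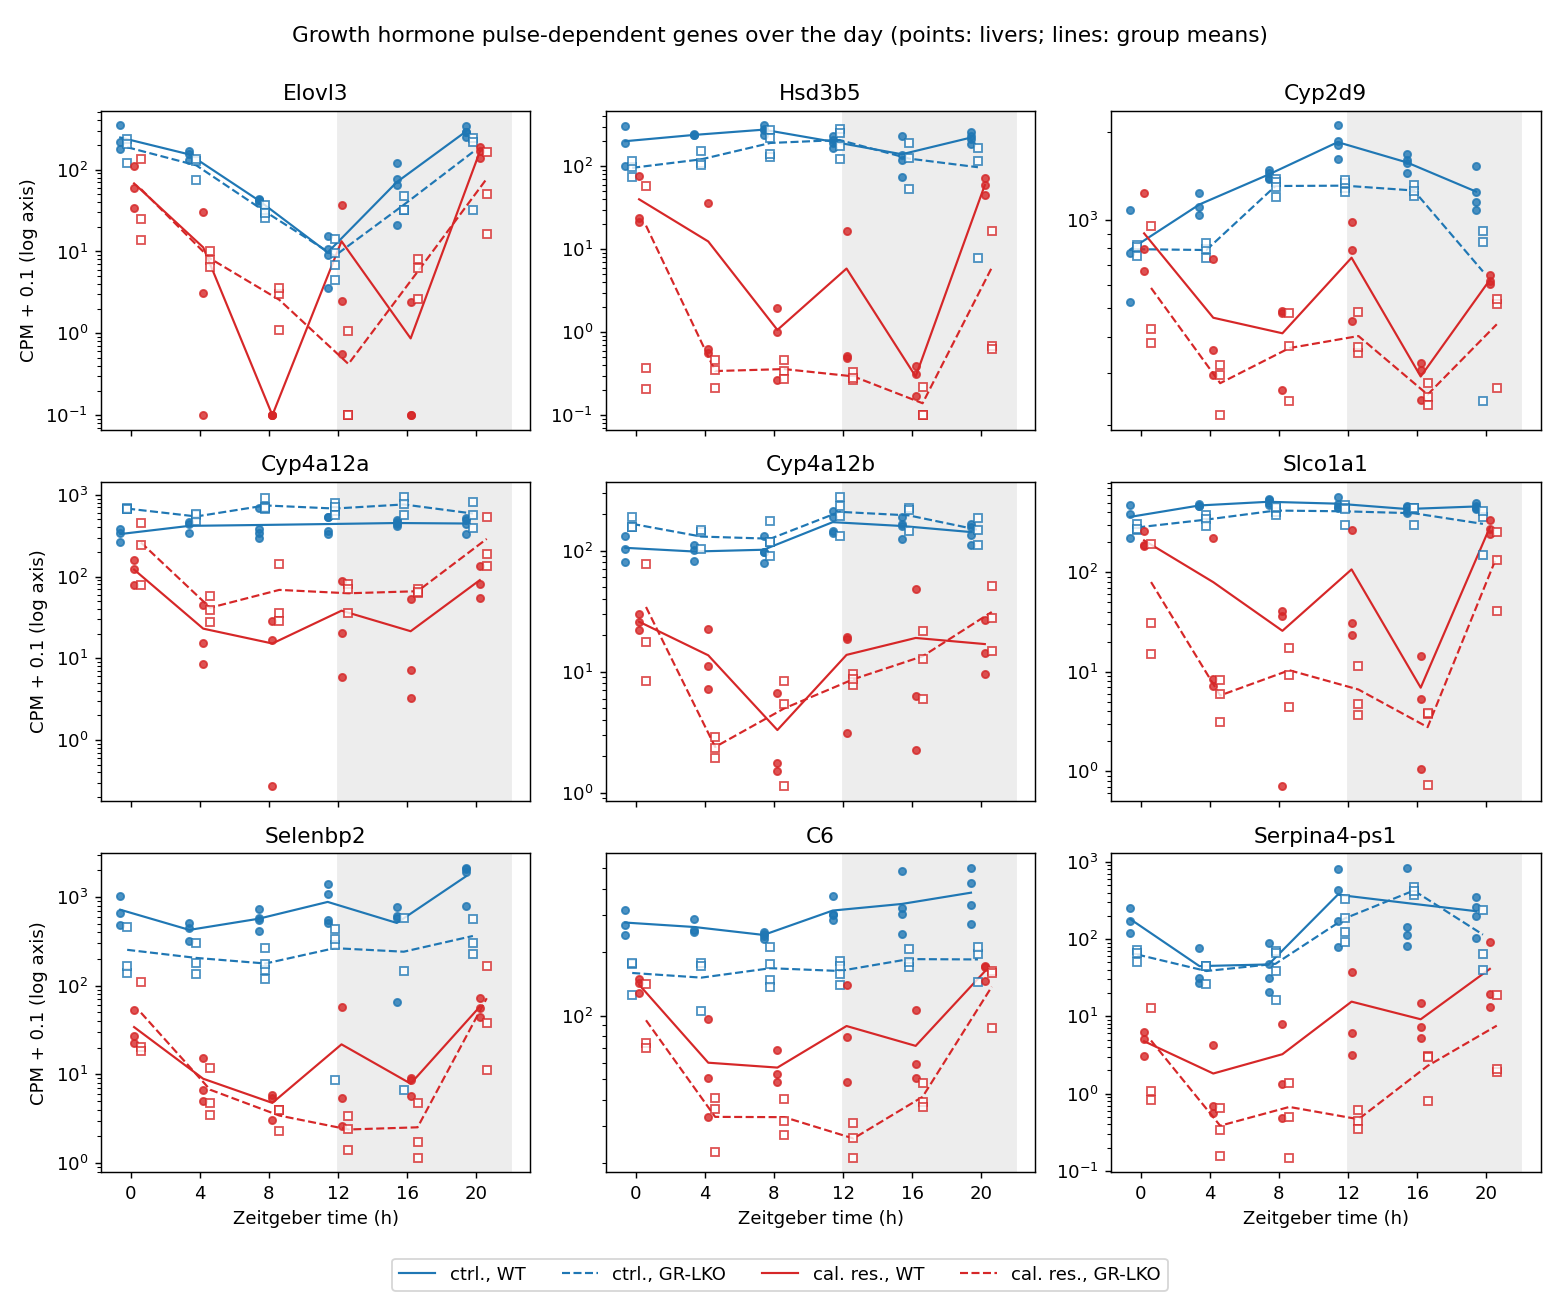
Level of each gene over the day (CPM + 0.1, log axis, against hours after lights on) in WT and GR LKO livers on either diet. Points are livers, lines join group means, points are shifted slightly along the time axis to separate the groups, and grey marks the dark phase from ZT12; restricted WT *Hsd3b5* runs from a mean of 0.193 CPM at ZT16 to 59.5 CPM at ZT20.

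Over the day on control diet, *Elovl3* had the widest swing of the 9 genes in WT livers, with time-point means from 9.64 CPM at ZT12 to 292 CPM at ZT20. Its levels in WT were 347, 217 and 177 CPM at ZT0, 43.8, 39.2, 42.5 and 42.9 CPM at ZT8 and 15.5, 9.01, 3.52 and 10.5 CPM at ZT12. The elongase gene was high in every liver around lights on and low in every liver at the end of the light phase, with no overlap between these times. Means of *Cyp2d9* in WT ran from 794 CPM at ZT0 to 1845 CPM at ZT12 and those of *Cyp4a12b* from 97.98 CPM at ZT4 to 171 CPM at ZT12. In GR LKO livers on control diet the means of *Elovl3* ran from 8.71 CPM at ZT12 to 188 CPM at ZT0, those of *Cyp2d9* from 668 CPM at ZT20 to 1310.5 CPM at ZT12 and those of *Serpina4-ps1* from 38.5 CPM at ZT4 to 425 CPM at ZT16. In WT the means of *Cyp4a12a* ran from 331 CPM at ZT0 to 451 CPM at ZT16, those of *Slco1a1* from 361 CPM at ZT0 to 512 CPM at ZT8, those of *C6* from 241 CPM at ZT8 to 382 CPM at ZT20 and those of *Hsd3b5* from 140.0 CPM at ZT16 to 277 CPM at ZT8. *Selenbp2* (from 425 CPM at ZT4 to 1707 CPM at ZT20) and *Serpina4-ps1* (from 44.6 CPM at ZT4 to 375 CPM at ZT12) had means further apart. Whether these courses follow a 24 h cycle is not judged here, since time-point values were among those that chose the genes.

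On caloric restriction the levels of several of the 9 genes varied over the day in WT livers, and some of these were also far below control-diet means at every time point. Restricted WT means of *Selenbp2* were 0.822 to 4.74% of control-diet means over the 6 time points and those of *Serpina4-ps1* 2.57 to 17.9%. The step from ZT16 to ZT20, within the hours after the daily meal at ZT12, was picked after the values of the 9 genes had been seen. *Hsd3b5* in restricted WT livers was at 0.213, 0.0717 and 0.294 CPM at ZT16 and at 73.2, 60.4 and 45.0 CPM at ZT20. *Elovl3* was at 0, 0 and 2.30 CPM at ZT16 and at 187, 171 and 139.7 CPM at ZT20. *Slco1a1* was at 0.941, 5.25 and 14.2 CPM at ZT16 and at 336, 272 and 244 CPM at ZT20. At ZT0 *Elovl3* was at 58.9, 34.2 and 109.9 CPM and *Slco1a1* at 187, 184 and 257 CPM. By ZT8 *Elovl3* was at 0 in all 3 restricted WT livers. *Selenbp2* was at 5.59, 9.04 and 8.63 CPM at ZT16 and 44.1, 73.0 and 56.1 CPM at ZT20, *C6* at 59.0, 50.6 and 106 CPM and 171, 146 and 169.7 CPM, and *Cyp2d9* at 308, 244 and 326 CPM and 606, 649 and 621 CPM. In these 6 genes and *Cyp4a12a* every ZT20 liver was above every ZT16 liver, as in 19.5% of all genes tested.

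On the log2 scale the fitted differences between ZT20 and ZT16 in restricted WT livers were 8.17 (SE 0.33) for *Hsd3b5*, 7.72 (SE 0.70) for *Elovl3*, 5.40 (SE 0.69) for *Slco1a1*, 2.92 (SE 0.24) for *Selenbp2*, 2.19 (SE 0.77) for *Serpina4-ps1*, 2.08 (SE 0.88) for *Cyp4a12a*, 1.181 (SE 0.26) for *C6*, 1.10 (SE 0.11) for *Cyp2d9* and -0.17 (SE 0.93) for *Cyp4a12b*. At ZT16 the mean was 0.193 CPM for *Hsd3b5* and 0.767 CPM for *Elovl3*, so their fitted values rest on few reads there. Both genes passed the filter on low counts through their ZT20 livers. Without ZT16 replicate 3, which left *Elovl3* at 0 in that group, its fitted value was 14.43 and no bound. With counts of their near relatives added the differences were 1.04 for *Hsd3b5*, 0.41 for *Cyp2d9* and 0.09 for *Selenbp2*. In restricted GR LKO livers 8 of the 9 genes passed the filter on low counts, and in 5 of them every ZT20 liver was above every ZT16 liver (17.4% of all genes): *Slco1a1* at 5.74 (SE 0.82), *Selenbp2* at 4.88 (SE 1.07), *Elovl3* at 3.79 (SE 0.85), *Cyp4a12a* at 2.14 (SE 0.48) and *C6* at 1.75 (SE 0.25). *Serpina4-ps1* was at 1.77 (SE 0.97), and at -0.18 without ZT20 replicate 3. With near relatives added the GR LKO differences were -0.0498 for *Selenbp2* and -0.0594 for *Cyp2d9*, which was at 0.81 (SE 0.25) alone. *Hsd3b5*, which did not pass the filter there, was at 0, 0.118 and 0 CPM at ZT16 and 0.588, 0.528 and 16.6 CPM at ZT20, and a single liver carried nearly all of its ZT20 signal. The step was not compared between genotypes.

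On control diet every ZT20 liver was above every ZT16 liver for 2 of the 9 genes in WT (6.19% of all genes), *Elovl3* at 2.08 (SE 0.41) and *Selenbp2* at 1.78 (SE 0.62) on the log2 scale. In control-diet GR LKO livers every ZT20 liver was below every ZT16 liver for 2 genes (16.98% of all genes), *Serpina4-ps1* at -1.88 (SE 0.61) and *Cyp2d9* at -0.89 (SE 0.43). Between diets the step in WT gave, as an interaction in which a constant batch offset drops out, 7.47 (SE 0.66) for *Hsd3b5*, 5.64 (SE 0.93) for *Elovl3*, 5.29 (SE 0.65) for *Slco1a1*, 2.52 (SE 1.23) for *Serpina4-ps1*, 2.08 (SE 0.88) for *Cyp4a12a*, 1.41 (SE 0.17) for *Cyp2d9*, 1.14 (SE 0.84) for *Selenbp2*, 0.98 (SE 0.40) for *C6* and -0.0288 (SE 0.92) for *Cyp4a12b*. The interaction of *Hsd3b5* rests on the same few reads in restricted livers at ZT16. Without restricted ZT16 replicate 3 that of *Elovl3* was 12.20, again no bound. With near relatives added they were 0.45 for *Hsd3b5*, 0.67 for *Cyp2d9* and -1.18 for *Selenbp2*. Control-diet WT levels of *Slco1a1*, for comparison, were 395, 451, 467 and 418 CPM at ZT16 and 459.8, 503, 431 and 443 CPM at ZT20, with overlapping ranges.

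Over the whole day, time-point means in restricted WT livers ran from 0 CPM at ZT8 to 166 CPM at ZT20 for *Elovl3*, from 0.193 CPM at ZT16 to 59.5 CPM at ZT20 for *Hsd3b5*, from 6.81 CPM at ZT16 to 284 CPM at ZT20 for *Slco1a1*, from 4.66 CPM at ZT8 to 57.8 CPM at ZT20 for *Selenbp2*, from 56.7 CPM at ZT8 to 162 CPM at ZT20 for *C6*, from 293 CPM at ZT16 to 901 CPM at ZT0 for *Cyp2d9*, from 15.0 CPM at ZT8 to 121 CPM at ZT0 for *Cyp4a12a*, from 3.20 CPM at ZT8 to 25.7 CPM at ZT0 for *Cyp4a12b* and from 1.72 CPM at ZT4 to 41.1 CPM at ZT20 for *Serpina4-ps1*. In restricted GR LKO livers they ran from 0.322 CPM at ZT12 to 77.3 CPM at ZT20 for *Elovl3*, from 0.0393 CPM at ZT16 to 19.2 CPM at ZT0 for *Hsd3b5*, from 2.67 CPM at ZT16 to 144 CPM at ZT20 for *Slco1a1*, from 2.29 CPM at ZT12 to 72.0 CPM at ZT20 for *Selenbp2*, from 26.1 CPM at ZT12 to 137 CPM at ZT20 for *C6*, from 254 CPM at ZT16 to 587 CPM at ZT0 for *Cyp2d9*, from 41.4 CPM at ZT4 to 288 CPM at ZT20 for *Cyp4a12a*, from 2.29 CPM at ZT4 to 34.1 CPM at ZT0 for *Cyp4a12b* and from 0.283 CPM at ZT4 to 7.48 CPM at ZT20 for *Serpina4-ps1*. For several of these highest means the standard deviation (SD) between livers was larger than the mean. In restricted GR LKO livers these were *Hsd3b5* (SD 32.9) and *Cyp4a12b* (37.1) at ZT0. At ZT20 they were *Elovl3* (78.3), *Selenbp2* (83.4) and *Serpina4-ps1* (9.65) in GR LKO and *Serpina4-ps1* (43.3) in WT. Means at other times also rest on a single liver, as named above for *Slco1a1* at ZT4 and ZT12 in WT and at ZT0 in GR LKO.

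The genotype comparison asked which genes depend on the hepatocyte glucocorticoid receptor at each time. At ZT12, the end of the fast, 8 of the 9 genes passed the filter on low counts in restricted livers, and 3 of them were lower in every GR LKO liver than in every WT liver, as were 18.99% of all genes tested. *Slco1a1* was at 23.1, 266 and 31.1 CPM in WT and at 11.4, 3.55 and 4.59 CPM in GR LKO. *C6* was at 79.4, 140.0 and 48.6 CPM in WT and at 31.1, 26.2 and 21.2 CPM in GR LKO. *Serpina4-ps1* was at 3.09, 37.1 and 6.05 CPM in WT and at 0.516, 0.337 and 0.244 CPM in GR LKO, where few reads stand behind each value, so that it passed the filter through its WT livers. For the transporter, the complement gene and the pseudogene WT replicate 2 was the highest WT liver. The fitted log2 differences were -4.04 (SE 1.05) for *Slco1a1*, -1.77 (SE 0.36) for *C6* and -5.36 (SE 1.11) for *Serpina4-ps1*. Without WT replicate 2 that of *Slco1a1* was -2.07.

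Values of 5 other genes overlapped between the genotypes at ZT12 on caloric restriction. *Elovl3* was at 0.458, 36.9 and 2.38 CPM in WT and at 0, 0 and 0.967 CPM in GR LKO. *Selenbp2* was at 5.30, 57.2 and 2.49 CPM and 3.26, 1.299 and 2.31 CPM, and *Cyp2d9* at 791, 989 and 453 CPM and 351, 487 and 368 CPM. In these 3 WT replicate 2 was the highest liver, and their fitted log2 differences were -5.37 (SE 1.804), -3.23 (SE 1.16) and -0.89 (SE 0.27). Without that liver the value was -2.19 for *Elovl3* and -0.76 for *Selenbp2*, and with near relatives added it was 0.33 for *Selenbp2* and -0.19 for *Cyp2d9*. Without GR LKO replicate 3, which left *Elovl3* at 0 in that group, its fitted value was -10.76 and no bound. *Cyp4a12a*, at 20.5, 88.1 and 5.73 CPM in WT and at 35.99, 80.1 and 70.6 CPM in GR LKO livers, and *Cyp4a12b* overlapped as well. *Hsd3b5*, which did not pass the filter, was at 0.420, 16.5 and 0.392 CPM in WT and at 0.229, 0.169 and 0.183 CPM in GR LKO.

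At ZT8 on caloric restriction *Elovl3* went the other way. It was at 0 in all 3 WT livers and at 1.01, 2.92 and 3.48 CPM in GR LKO livers, at least 15.0-fold higher against a floor of 3 counts per library, and passed the filter through its GR LKO livers. Of the 8 genes that passed the filter, *Elovl3* and *Cyp4a12a* (2.19, SE 1.08, on the log2 scale) were higher in every GR LKO liver, as were 11.6% of all genes tested, and *C6* (-0.77, SE 0.18) was lower in every GR LKO liver, as were 13.1%. At ZT0 all 9 genes passed and all overlapped between genotypes. Without GR LKO replicate 1, the liver highest for all 9 genes, the ZT0 difference of *Hsd3b5* went from -1.03 (SE 1.46) to -7.64 and that of *Serpina4-ps1* from 0.05 (SE 0.98) to -2.44. At ZT4 1 of 7 genes, *Cyp4a12b* (-2.55, SE 0.44, and 0.26 with *Cyp4a12a* added), was lower in every GR LKO liver (10.5% of all genes). *Slco1a1* was at -3.82 (SE 1.40) there, and at -0.44 without WT replicate 3.

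At ZT16 on caloric restriction 8 genes passed the filter. *Selenbp2* (-1.65, SE 0.50, on the log2 scale), *C6* (-0.79, SE 0.26) and *Serpina4-ps1* (-2.03, SE 0.56) were lower in every GR LKO liver than in every WT liver (12.7% of all genes tested), and *Elovl3* (2.85, SE 1.13) and *Cyp4a12a* (1.63, SE 0.82) were higher in every GR LKO liver (12.3%). Without WT replicate 3, which left *Elovl3* at 0 in that group, its fitted value was 9.54 and no bound. Without the same liver that of *C6* was -0.41. With near relatives added the value was 0.23 for *Selenbp2* and 0.10 for *Cyp2d9*, which was at -0.20 (SE 0.13) alone. At ZT20 all 9 genes passed. *Hsd3b5* (-3.36, SE 1.05) and *Cyp2d9* (-0.49, SE 0.25) were lower in every GR LKO liver (14.8% of all genes) and *Cyp4a12a* (1.69, SE 0.56) was higher (11.96%). *Hsd3b5* at ZT20 was at 73.2, 60.4 and 45.0 CPM in WT and at 0.588, 0.528 and 16.6 CPM in GR LKO, with -6.70 on the log2 scale without GR LKO replicate 3 and -0.21 with near relatives added. *Slco1a1* at ZT20 was at 336, 272 and 244 CPM in WT and at 134, 40.9 and 256 CPM in GR LKO, with a single overlapping liver. *Serpina4-ps1* was at -2.47 (SE 1.06) at ZT20, and at -4.41 without GR LKO replicate 3.

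On control diet, where all 9 genes passed the filter at each time, the complement gene *C6* was lower in every GR LKO liver than in every WT liver at all 6 time points. At ZT12 it was at 285, 300.2, 303 and 370.4 CPM in WT and at 158, 181, 140.2 and 173 CPM in GR LKO. *Cyp2d9* was at 1856, 1800.0, 2104 and 1619.5 CPM in WT and at 1283, 1339, 1375 and 1245 CPM in GR LKO. *C6* (-0.95, SE 0.11, on the log2 scale), *Cyp2d9* (-0.49, SE 0.09) and *Selenbp2* (-1.73, SE 0.83) were lower in every GR LKO liver at ZT12 (4.40% of all genes tested), and *Cyp4a12a* (0.63, SE 0.18) was higher (3.98%). At ZT8 *Selenbp2* was at 724, 572, 418 and 555 CPM in WT and at 149, 174, 268 and 119 CPM in GR LKO (-1.67, SE 0.25, and -0.73 with *Selenbp1* added). All GR LKO livers were below all WT livers for this gene and for *C6* (-0.52, SE 0.12), *Elovl3* (-0.46, SE 0.11), *Slco1a1* (-0.29, SE 0.07) and *Cyp2d9* (-0.13, SE 0.05), and for 3.43% of all genes. *Cyp4a12b* was at 0.31 (SE 0.20) at ZT8, and at 0.72 with *Cyp4a12a* added. At ZT0 *Cyp4a12a* was at 384, 345 and 263 CPM in WT and at 675, 680.3 and 679 CPM in GR LKO (1.03, SE 0.14). The fatty acid hydroxylase gene and its copy *Cyp4a12b* (0.65, SE 0.19) were higher in every GR LKO liver (12.6% of all genes), and *C6* (-0.80, SE 0.17), *Selenbp2* (-1.51, SE 0.49) and *Serpina4-ps1* (-1.52, SE 0.27) were lower (9.37%).

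At ZT4 on control diet 5 genes were lower in every GR LKO liver than in every WT liver (8.08% of all genes tested): *Selenbp2* (-1.04, SE 0.30, on the log2 scale), *Hsd3b5* (-0.97, SE 0.14), *C6* (-0.79, SE 0.19), *Cyp2d9* (-0.51, SE 0.09) and *Slco1a1* (-0.47, SE 0.10). *Cyp4a12a* (0.39, SE 0.14) was higher (7.82%). The ZT4 values with near relatives added were -0.43 for *Selenbp2*, -0.20 for *Hsd3b5* and -0.30 for *Cyp2d9*. At ZT16 *C6* (-0.87, SE 0.22) and *Cyp2d9* (-0.32, SE 0.07, and -0.22 with near relatives added) were lower in every GR LKO liver (8.31% of all genes) and *Cyp4a12a* (0.75, SE 0.16) was higher (8.55%). At ZT20 6 genes were lower in every GR LKO liver (6.41% of all genes): *Selenbp2* (-2.23, SE 0.43), *Hsd3b5* (-1.20, SE 0.75), *C6* (-1.04, SE 0.24), *Cyp2d9* (-0.90, SE 0.40), *Elovl3* (-0.84, SE 0.56) and *Slco1a1* (-0.58, SE 0.29). That of *Hsd3b5* was -0.65 without GR LKO replicate 1, -1.84 without GR LKO replicate 3 and -0.25 with near relatives added. *Selenbp2* at ZT20 was at 2120.3, 2039.9, 782 and 1887 CPM in WT and at 228, 299 and 561 CPM in GR LKO. Single livers of both genotypes nevertheless had little of the transcript at other times, with GR LKO replicate 3 at 8.45 CPM at ZT12 and 6.59 CPM at ZT16, and WT replicate 3 at 65.3 CPM at ZT16.

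**Figure D3:**
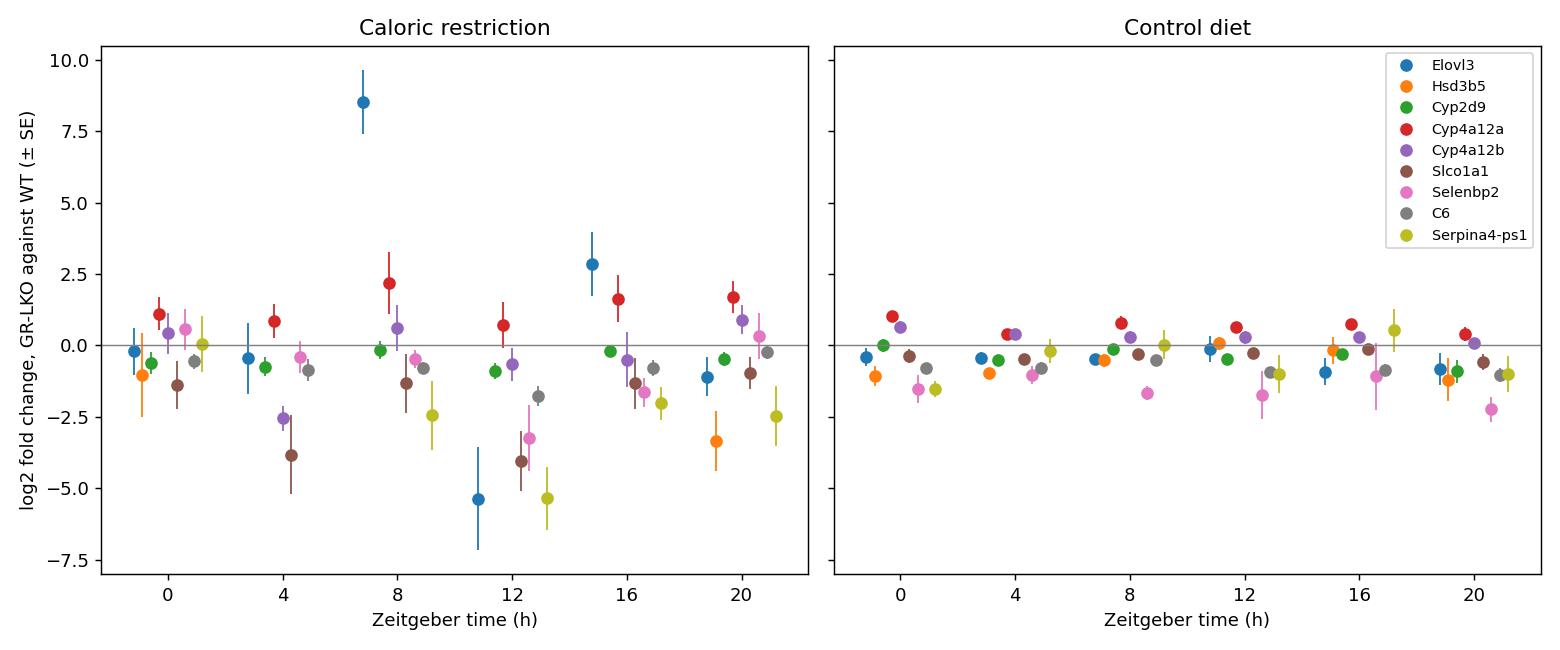
Fitted log2 difference between GR LKO and WT livers at each time point on either diet, with SE as error bars, for genes that passed the filter on low counts. Points are shifted slightly along the time axis, and the value of *Elovl3* at ZT8 on caloric restriction is a fitted value against a group with no count and so no bound. *C6* lies below 0 at all 6 times on both diets and *Cyp4a12a* above 0.

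Averaged over the 6 time points the genotype difference rests on all livers of a diet. On control diet (22 WT and 20 GR LKO livers) the fitted difference was below 0 for 7 of the 9 genes and above 0 for 2. *C6* ranged over 232 to 501 CPM with a median of 286 in WT and 105 to 213 CPM with a median of 174 in GR LKO, and the highest GR LKO liver was below the lowest WT liver (-0.83, SE 0.08, on the log2 scale, -0.86 to -0.79 with the libraries of 1 replicate number left out). *Selenbp2* ranged over 65.3 to 2120.3 CPM with a median of 596 in WT and 6.59 to 571 CPM with a median of 204 in GR LKO (-1.55, SE 0.34, -2.01 to -1.34 with 1 number left out), overlapping widely. *Cyp4a12a* had the reverse sign, over 263 to 688 CPM with a median of 425 in WT and 393 to 947 CPM with a median of 677 in GR LKO (0.67, SE 0.09, 0.56 to 0.79), as did its copy *Cyp4a12b* (0.34, SE 0.10, 0.22 to 0.45). Smaller values below 0 were those of *Hsd3b5* (-0.65, SE 0.20, -0.81 to -0.45), *Elovl3* (-0.53, SE 0.19, -0.63 to -0.33), *Serpina4-ps1* (-0.53, SE 0.29, -0.56 to -0.43), *Cyp2d9* (-0.39, SE 0.09, -0.47 to -0.26) and *Slco1a1* (-0.35, SE 0.08, -0.41 to -0.26). With near relatives added the value was -0.08 for *Hsd3b5*, -0.83 for *Selenbp2* and -0.22 for *Cyp2d9*.

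On caloric restriction (18 livers per genotype) *Slco1a1* ranged over 0.601 to 336 CPM with a median of 38.2 in WT and 0.631 to 256 CPM with a median of 8.62 in GR LKO (-2.15, SE 0.50, on the log2 scale, -2.79 to -1.34 with the libraries of 1 replicate number left out). *Serpina4-ps1* ranged over 0.380 to 90.9 CPM with a median of 5.58 in WT and 0.0476 to 18.6 CPM with a median of 0.703 in GR LKO (-2.47, SE 0.53, -2.76 to -2.12). *C6* ranged over 33.0 to 171 CPM with a median of 87.8 in WT and 21.2 to 164 CPM with a median of 39.6 in GR LKO (-0.83, SE 0.15, -1.02 to -0.64). Ranges of the genotypes overlapped in all 3. The fitted difference was below 0 also for *Hsd3b5* (-3.15, SE 1.28, -4.22 to -2.50), *Selenbp2* (-0.82, SE 0.38, -1.44 to -0.19) and *Cyp2d9* (-0.52, SE 0.15, -0.65 to -0.40), and above 0 for *Cyp4a12a* (1.36, SE 0.39, 1.09 to 1.68) and *Elovl3* (0.68, SE 1.45, 0.25 to 1.26). The value of *Elovl3* takes in ZT8, fitted at 8.52 against restricted WT livers all at 0, and is no bound. At the other times, in order from ZT0, its fitted differences were -0.21, -0.45, -5.37, 2.85 and -1.09. The day-mean value of *Cyp4a12b* (-0.31, SE 0.36) turned its sign with 1 number left out (-0.58 to 0.14, the last without replicate 3). Summing near relatives gave 0.09 for *Hsd3b5*, 0.04 for *Selenbp2* and -0.17 for *Cyp2d9*.

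How far the genotype difference itself depended on the diet is given as an interaction, in which a constant offset between the batches of the diets drops out. Averaged over the day that of *Slco1a1* was -1.80 (SE 0.46) on the log2 scale, more negative on caloric restriction, and -2.54 to -0.93 with the libraries of 1 replicate number left out. *Hsd3b5* had -2.49 (SE 1.15, range -3.77 to -1.77), *Serpina4-ps1* -1.93 (SE 0.65, range -2.23 to -1.69), *Elovl3* 1.19 (SE 1.01, range 0.54 to 1.85), *Selenbp2* 0.73 (SE 0.53, range -0.10 to 1.83) and *Cyp4a12b* -0.64 (SE 0.34, range -1.05 to -0.13). The value of *Elovl3* takes in ZT8, where restricted WT livers were all at 0, and is no bound. That of *Hsd3b5* rests on few reads in restricted GR LKO livers from ZT4 to ZT16. With near relatives added the day-mean interaction of *Hsd3b5* was 0.17. *C6*, lower in GR LKO on both diets, had -0.01 (SE 0.16), *Cyp4a12a*, higher on both, 0.69 (SE 0.38), and *Cyp2d9* -0.13 (SE 0.17). At ZT12 alone the values furthest from 0 hung on restricted WT replicate 2. *Hsd3b5* was at -4.86 (SE 1.57), *Elovl3* at -5.21 (SE 1.76) and *Slco1a1* at -3.77 (SE 0.97), and without that liver at -1.10, -2.07 and -1.80. *Serpina4-ps1* was at -4.32 (SE 1.60) and at -2.60 without it. Without restricted GR LKO replicate 3 the fitted value of *Elovl3* was -10.44, no bound since that left a group at 0. Counts summed over near relatives gave 0.09 for *Hsd3b5* and 1.32 for *Selenbp2*, which was at -1.48 (SE 1.57) alone.

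The corticosterone experiment asked what a daily glucocorticoid peak does without restriction. Of the 9 genes 4 were lower in every CORT liver than in every vehicle liver, as were 16.3% of all genes tested. *Elovl3* was at 23.4, 36.3 and 121 CPM after vehicle and 9.71, 22.5 and 6.87 CPM after CORT (-2.20, SE 0.69, on the log2 scale). *Selenbp2* was at 912, 828 and 1836 CPM and 637, 365 and 631 CPM (-1.13, SE 0.35). *Cyp4a12b* was at 110.0, 137 and 167 CPM and 95.7, 55.0 and 95.3 CPM (-0.75, SE 0.24). *Cyp4a12a* was at 346, 399 and 498 CPM and 346, 168 and 304 CPM (-0.60, SE 0.27), with the highest CORT liver barely below the lowest vehicle liver. In *Elovl3* and *Selenbp2* vehicle replicate 3 was well above the other vehicle livers. *Slco1a1* was at 349.7, 398 and 361 CPM and 448, 154 and 424 CPM, *Hsd3b5* at 114, 127 and 193 CPM and 198, 25.1 and 105 CPM, and *C6* at 266, 292 and 300.3 CPM and 336, 191 and 296 CPM. CORT replicate 2 was the low liver in each of these, and the other CORT livers lay within or near the vehicle range. For *Cyp2d9* the fitted difference was 0.07 (SE 0.10), and *Serpina4-ps1* overlapped at 200.3, 343 and 445 CPM and 326, 194 and 599.7 CPM. Markers of other cells differed between these livers as well. Summed, 3 erythrocyte markers, led by *Hbb-bs*, were at 442 to 554 CPM after vehicle and 218 to 383 CPM after CORT, 4 endothelial markers, led by *Clec4g*, at 79.2 to 105 CPM after vehicle and 63.7 to 74.1 CPM after CORT, and 2 neutrophil markers, led by *S100a9*, at 0.0717 to 0.550 CPM after vehicle and 1.43 to 1.82 CPM after CORT, without overlap and with none of these markers at 0 in every library of a group. The 6 hepatocyte markers, led by *Alb* and none at 0, summed to 89482 to 94999 CPM after vehicle and 84073 to 93478 CPM after CORT. The part of these markers in the differences of the 9 genes was not tested.

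The 9 genes varied together across livers to different degrees. Over the 78 libraries of the time series, after the mean of each diet was subtracted from log2 CPM, Pearson's r between members ran from 0.168 (*Cyp4a12a* with *Serpina4-ps1*) to 0.860 (*Hsd3b5* with *Slco1a1*), and was 0.744 for *Slco1a1* with *C6* and 0.674 for the *Cyp4a12* pair. These libraries share time points, genotypes and depth, and the r values are a description. Among 8865 other genes with a mean of at least 5 CPM, the closest to *C6* were *C8b* (0.934), *Mup20* (0.918) and *C8a* (0.857). The closest to *Slco1a1* were *C8a* (0.872), *Hao1* (0.832) and *Serpina1c* (0.820), and to *Hsd3b5* *Serpina1c* (0.878), *Serpina1e* (0.852) and *Ttc39c* (0.836). *Cyp2d9* was closest to its relative *Cyp2d10* (0.827), *Cyp4a12a* to *Ces3a* (0.827), *Cyp4a12b* to *Slc22a28* (0.687), *Selenbp2* to *C8b* (0.728), *Serpina4-ps1* to *Ces3b* (0.798) and *Elovl3* to *Clpx* (0.767).

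Genes of GH signaling were measured beside the 9, as a list that, like the lists below, was drawn up with earlier results of these data known, so that nothing is read from its counts beside the share of all genes. In the diet comparison 9 of 15 tested genes of this list were called by edgeR, 3 higher and 6 lower on caloric restriction (47.1% of all genes called, list median log2 -0.21). The number was 5 to 9 with a library left out in turn, the lowest without control replicate 2, and 5 in time-series WT libraries at ZT12. Between genotypes over the day 3 of 15 were called on caloric restriction (2 to 4 with the libraries of 1 replicate number left out) and 2 of 15 on control diet (0 to 3, with 1 without replicate 1 and the lowest without replicate 3), against 32.9% and 18.6% of all genes. Beside *Ghr*, given below, *Stat5a* was called higher in GR LKO on caloric restriction (log2 0.23). *Ptpn11* was called lower on caloric restriction (-0.13) and on control diet (-0.09). *Cux2*, a repressor that is female-biased in liver, was at a mean of 21.5 CPM in restricted and 0.560 CPM in control livers (log2 5.26, SE 0.28, edgeR adjusted p = 7.66e-05). *Onecut1*, which encodes the hepatocyte factor HNF6, was lower (log2 -2.70, SE 0.32, edgeR adjusted p = 0.000860), and so was the GH receptor gene *Ghr* at 349 against 640.4 CPM (log2 -0.88, SE 0.13, edgeR adjusted p = 0.00168). The repressor gene *Bcl6* (log2 -1.26) and the feedback inhibitor gene *Cish* (-1.22) were called lower and *Stat5b* higher (0.48). Without control replicate 1 or restricted replicate 3 neither *Bcl6* nor *Cish* was called, without control replicate 2 none of the 3 was, and each was lost without a further library as well (restricted replicate 2 for *Bcl6*, restricted replicate 1 for *Cish*, control replicate 3 for *Stat5b*), with edgeR adjusted p from 0.0562 to 0.0865, and none of the 3 was called in time-series WT libraries at ZT12. *Igfals*, which encodes the acid-labile subunit that binds IGF1 in blood and was named after its values were seen, was lower at a mean of 20.1 against 45.9 CPM (log2 -1.19, SE 0.15, edgeR adjusted p = 0.00115), and was called whichever library was left out. *Socs2* (-0.21) and *Igf1* (-0.25), classic targets of GH, were not called. Between genotypes *Ghr* was higher in GR LKO over the day on caloric restriction (log2 0.39, SE 0.05, edgeR adjusted p = 9.62e-07) and also on control diet (log2 0.14, SE 0.04, edgeR adjusted p = 0.00929, but edgeR adjusted p = 0.0578 without replicate 2 and 0.0822 without replicate 3). The interaction was called (log2 0.26, SE 0.07, edgeR adjusted p = 0.0141), but not without replicate 1 (edgeR adjusted p = 0.0628) or 2 (0.315). *Cish* was higher in GR LKO at ZT20 on control diet, at a mean of 54.8 against 5.21 CPM (log2 3.39, SE 0.35, edgeR adjusted p = 0.0119), though not in a single fit of all control-diet libraries (edgeR adjusted p = 0.0621) or with the replicate number as a block (0.292). Of all genes 0.420% were called in that comparison. At the other times on control diet *Cish* was not called, with -0.14 at ZT0, -0.27 at ZT4, -0.0364 at ZT8, -0.17 at ZT12 and 2.69 at ZT16 (edgeR adjusted p = 0.152), nor over the day on control diet (0.91, edgeR adjusted p = 0.0982) or on caloric restriction (-0.11).

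Further male-biased genes, 16 in a list likewise drawn up with earlier results known, were counted in the same comparisons, and nothing is read from these counts beside the share of all genes. In the diet comparison 16 of 16 were called lower on caloric restriction by edgeR (47.1% of all genes called in either direction, median log2 -2.80), against -6.89 for the 9 genes and -1.80e-06 for all genes tested. The major urinary protein genes *Mup7* (log2 -9.17), *Mup20* (-6.34) and *Mup21* (-4.70) and the monooxygenase-like gene *Moxd1* (-7.20) had the largest differences. *Mup* genes are near-identical copies and uncertain one by one. Between genotypes over the day 11 of 15 tested were called on caloric restriction, 9 lower and 2 higher in GR LKO (32.9% of all genes, median -0.63, against -0.82 for the 9 genes and 0.00104 for all genes). On control diet 12 of 16 were called, 11 lower and 1 higher (18.6% of all genes, median -0.44, against -0.53 and -0.00354). *Mup20* fell on both diets (log2 -1.50, SE 0.30, edgeR adjusted p = 0.000285 on caloric restriction and log2 -1.44, SE 0.12, edgeR adjusted p = 6.40e-11 on control diet), *Moxd1* on control diet (log2 -5.03), and *Keg1*, which encodes an acyltransferase, rose on caloric restriction (0.98). From ZT16 to ZT20 in restricted WT, the step picked from the values of the 9 genes, 12 of 15 were called higher (21.1% of all genes in either direction, median 1.28, against 2.19 for the 9 genes and 0.00192 for all genes), led by *Mup7* (log2 3.80), *Mup20* (2.84), *Mup21* (2.25) and the complement gene *C8a* (2.01).

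Female-biased genes were counted in the same comparisons, again from a list drawn up with earlier results known, so that nothing is read from the counts. In the diet comparison 17 of 18 tested were called, 16 higher and 1 lower on caloric restriction (47.1% of all genes called, median log2 4.29). The cytochrome P450 gene *Cyp2b9* was at a mean of 310.3 against 0.267 CPM (log2 10.16, SE 0.32, edgeR adjusted p = 1.69e-05), *Cyp2a4* at 23.0 against 0.174 CPM (log2 7.04) and the transporter gene *Slc22a26* at 17.3 against 0.285 CPM (5.91). Between genotypes over the day 18 of 23 tested were called on caloric restriction, 15 higher and 3 lower in GR LKO (32.9% of all genes, median 1.29), and 14 of 17 on control diet, 13 higher and 1 lower (18.6% of all genes, median 2.14). In the interaction over the day 4 of 23 were called, 1 higher and 3 lower (3.01% of all genes, median -0.52, against -0.13 for the 9 genes). Examples called higher between genotypes over the day are the hydroxy acid oxidase gene *Hao2* (log2 5.45) and *Cyp2a4* (4.01) on caloric restriction, *Cyp2b9* on control diet (6.57), and *Slc22a26* on both (3.93 and 4.62). In the step from ZT16 to ZT20 in restricted WT 9 of 18 were called lower and 0 higher (21.1% of all genes in either direction, median -1.46, 11 at an unadjusted p under 0.05), with *Cyp2b9* going from 496 to 36.4 CPM (log2 -3.76, SE 0.54, edgeR adjusted p = 0.00461). Nearest relatives of the 9 genes, also listed with earlier results known, did not share a direction. In the diet comparison 16 of 22 were called, 6 higher and 10 lower (47.1% of all genes called), among them *Cyp4a14* (log2 4.6) and *Slco1a4* (2.32) higher and *Cyp4a32* (-1.69) and *Hsd3b2* (-1.63) lower. *Cyp4a32* had the opposite sign in time-series WT libraries at ZT12 (0.43). The elongase gene *Elovl5* was higher in GR LKO over the day on both diets (log2 1.04 and 0.97), and the differences of *Elovl3*, not tested, were 0.68 and -0.53. The first of these takes in ZT8, where *Elovl3* was at 0 in all restricted WT livers, and is no bound.

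Promoter sequence was looked at for the genes with an entry in the reference. RefSeq (GRCm38.p6) gave the 250 bases before the start for 5 of the 9 genes, *C6*, *Cyp2d9*, *Hsd3b5*, *Selenbp2* and *Slco1a1*. These were searched on both strands for TTCNNNGAA, the motif bound by STAT5, found in 7.02% of 32851 promoters of that length, AGGTCA, the core bound by nuclear receptors (14%), CACGTG, the E-box (6.02%), and GTAAACA, bound by forkhead factors (3.17%). AGGTCA was found in *C6*, 40 bases before the start, and in *Slco1a1*, 134 and 24 bases before the start, and the other 3 motifs in none of the 5 windows. A match describes letters and not a bound site, and an absent match says only that the letters are not in these windows. The promoters of *Slco1a1* (chr6:141946963-141947212, minus strand) and *Hsd3b5* (chr3:98645535-98645784, minus strand) are shown because this pair had the highest mutual correlation. Both lie outside exons, and the RefSeq start of *Hsd3b5* lies upstream of the gene as placed by the annotation above. The *Cyp2d9* window (chr15:82452127-82452376, plus strand) lies inside that gene as placed there, past its start, and the windows of *C6* and *Selenbp2* overlap the first 35 and 17 bases of their genes. Capitals mark AGGTCA or its reverse complement.
Slco1a1: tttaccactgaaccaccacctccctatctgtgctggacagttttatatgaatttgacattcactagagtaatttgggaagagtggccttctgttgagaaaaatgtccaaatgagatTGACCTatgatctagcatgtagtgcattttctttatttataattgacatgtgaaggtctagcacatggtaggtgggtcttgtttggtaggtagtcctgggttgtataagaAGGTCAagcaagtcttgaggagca
Hsd3b5: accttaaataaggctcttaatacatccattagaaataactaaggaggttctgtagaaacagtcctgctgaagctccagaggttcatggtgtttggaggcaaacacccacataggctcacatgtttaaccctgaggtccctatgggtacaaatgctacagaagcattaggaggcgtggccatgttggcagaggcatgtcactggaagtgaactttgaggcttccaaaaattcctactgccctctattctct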

How the data were processed

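The authors quantified the reads of each library with Salmon and deposited estimated counts per gene in 4 tables, 1 column per library, after quality checks with FastQC and MultiQC. Their processing notes name the mouse build mm10, and the transcript annotation is not stated. Counts were rounded to whole numbers, since the tests need them so.

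Groups of each experiment were compared with edgeR 4.0.16 (R 4.3.3). Genes passing filterByExpr with a minimum count of 10 went through TMM scaling and quasi-likelihood F tests, with edgeR's default prior count. Benjamini-Hochberg adjustment ran over all genes tested, and a gene was called at an adjusted p under 0.05. A prior count of 2 was used only for log2 CPM. Each SE is the absolute log2 difference divided by the square root of F. Time-point comparisons used the libraries of the groups compared. Day means and interactions used all groups concerned. No difference of the 9 genes carries a test, since their values across diet, genotype, time point and corticosterone chose them, and calls are given for genes of the other lists. Rhythms were tested with JTK_CYCLE (period 24 h, 6 phases) on variance-stabilised values from DESeq2 1.42.0 and with limma 3.58.1, and these tests are not used either. DESeq2, RLE scaling, no filter, a single fit per diet, a replicate block, summed counts of near relatives, time-series libraries for the diet comparison and each library left out were alternatives. *Hsd3b5* was summed with *Hsd3b2*, *Hsd3b3*, *Hsd3b6* and *Hsd3b7* (52.4 to 80.8% coding identity). *Cyp2d9* was summed with *Cyp2d10*, *Cyp2d11*, *Cyp2d12*, *Cyp2d22*, *Cyp2d26*, *Cyp2d34* and *Cyp2d40* (57.1 to 93.3%). *Selenbp2* was summed with *Selenbp1*, and the *Cyp4a12* pair with each other. Methods were tested on simulated counts. The 9 genes and the 4 gene lists were chosen with earlier results of these data known. Named were all 9 genes and, per list and comparison, up to 4 called genes with the largest log2 difference and at least 5 CPM in a group, plus *Ghr*, *Stat5b*, *Socs2*, *Cish*, *Bcl6* and *Igf1*, and *Igfals*, added later. A gene that this rule names is not reported here. For likeness, the 3 genes with the highest correlation were ranked. Coding identity was computed with Biopython 1.88. Log2 values are given to 2 decimals and other values to 3 significant digits.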

Additional observations from a re-analysis of the deposited data

Results flagged for a closer look

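In 2 of 54 sets of 4 livers a single value lay far from the other 3. These levels were among the values that chose the genes, so both sets are listed as a description. The number of such sets was not compared with chance, and nothing is read from it. *Cyp4a12a* was at 662, 701, 920.3 and 679 CPM in control-diet GR LKO livers at ZT8, with replicate 3 apart. *Serpina4-ps1* was at 82.5, 112, 834 and 143 CPM in control-diet WT livers at ZT16, again with replicate 3 apart.

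A genotype difference was listed because it lay on opposite sides on the diets. At ZT8 *Elovl3* was at 0, 0 and 0 CPM in WT and 1.01, 2.92 and 3.48 CPM in GR LKO livers on caloric restriction, with every GR LKO liver the higher, and at 43.8, 39.2, 42.5 and 42.9 CPM in WT and 30.0, 37.3, 25.3 and 29.1 CPM in GR LKO livers on control diet, with every GR LKO liver the lower. Between diets the fitted genotype differences lay 8.98 apart on the log2 scale, which is no bound because a group was at 0. On caloric restriction these are few reads, each diet was a batch of its own, and the genes were chosen with values of both diets and genotypes in view, so the difference between diets was not tested.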

How the results depend on the processing

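The log2 differences of the 9 genes are given without a test, and a shift was counted as a move against a set spread. That spread was the largest SD of log2 CPM in any group compared. It is wide where a group lies near the floor, so a value counted as not moved may still have shifted far. By this measure 0 of 201 values moved under DESeq2, 0 of 201 under RLE scaling and 0 of 201 without the filter on low counts. In a single fit of all libraries of a diet 0 of 103 moved. With a library or replicate number left out 17 moved and 1342 did not. Between genotypes on caloric restriction *Hsd3b5* was counted as not moved from -3.15 to 0.09 (day mean, relatives summed). The same held from -1.03 to -3.24 (ZT0, replicate block). Without the 3 libraries highest for all 9 genes, a choice made after their values were seen, 3 of 27 moved, each the interaction at ZT12. With counts of near relatives summed values moved for *Hsd3b5* (7, against 11 that did not), *Selenbp2* (9 against 14), *Cyp2d9* (8 against 15) and, of the *Cyp4a12* pair, *Cyp4a12b* (3, against 43 for both). With time-series libraries, where diet coincides with batch, all 9 diet differences moved, and the sign turned for *Elovl3* (0.47) and for the related *Cyp4a32* (0.43). The alternatives planned for counts of called or rhythmic genes among the 9 are not reported, and those of the rhythms were not run, since such calls are not used.

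For the 4 lists, 16 of 16 counts of called genes under DESeq2 and 16 of 16 under RLE scaling stayed within 1.5 times the reported ones. Without the filter 1 gene of the GH signaling list was called over the day on control diet, and with time-series libraries 5 in the diet comparison. With a library or replicate number left out, the ranges in the diet comparison, the day means on each diet (restricted first) and the step in restricted WT, in this order, were 5 to 9, 2 to 4, 0 to 3 and 1 to 4 for GH signaling, 16 to 16, 9 to 11, 11 to 13 and 10 to 12 for other male-biased genes, 16 to 17, 16 to 17, 12 to 15 and 6 to 9 for female-biased genes, 12 to 17, 6 to 9, 6 to 10 and 10 to 14 for relatives of the 9 genes. With all libraries 5 of 15 GH signaling genes were called in the step, 3 higher and 2 lower (21.1% of all genes), more than with any library left out. Of single called differences of list genes 322 kept and 60 lost their call that way, each in the same direction. The cause was not tested for any of these.

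Replicate numbers are shared between groups, but correlations of same-numbered livers' deviations ran from -0.123 to 0.144 and no comparison had all of them above 0.1, so the numbers were not taken as pairs. With the replicate block 16 of 16 list counts stayed within 1.5 times the reported ones (for the diet comparison 9 of GH signaling and 17 female-biased). Of single calls 74 were kept and 4 lost. Against the wide spread given above 0 of 201 differences of the 9 genes moved.

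*Hsd3b5* failed the filter on low counts between genotypes from ZT4 to ZT16 on caloric restriction, where libraries held 14235473 to 20788575 counts.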
